A study of Homo sapiens with 8 samples.

Results

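Genes of B cell receptor (BCR) signalling, CD79A, CD79B, LYN, SYK, BTK, BLNK, PLCG2, CD22 and MS4A1, were followed on the Ago2-RIP-Chip arrays of ST486, a cell line derived from a Burkitt lymphoma (BL). Probes were assigned to these genes by their RefSeq accessions. This gave 9 genes with 1 probe each, of 16557 named genes and 41000 probes. ST486 cells had received either the empty MXW-PGK-IRES-GFP vector (EV-ST486, here EV cells) or a construct for ectopic miR-155 (miR-155-ST486, here miR-155 cells), and in both cases GFP+ cells were sorted. Both populations thus went through transduction and the same sort, and the EV cells are the control. RNA was isolated from unfractionated lysate, called the total (T) fraction, and from the Ago2 immunoprecipitate, called the IP fraction. A Cy3 and a Cy5 labelling were made of each of these 4 RNA samples, and the IP and T fractions of a cell population shared an array, once with total RNA in Cy3 and once with IP RNA in Cy3. The question the design asks is which transcripts are bound to Ago2, given by the IP/T ratio, and which of them become more strongly bound with ectopic miR-155, given by the miR-155/EV ratio of the IP/T ratios.

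The BCR is a membrane immunoglobulin held together with the signalling chains CD79A and CD79B. When antigen binds, the kinase LYN phosphorylates the tails of these chains, SYK docks on them and phosphorylates the adaptor BLNK, and BLNK brings BTK and PLCG2 together so that PLCG2 can cleave membrane phosphoinositides and set off calcium and protein kinase C signalling. CD22 is a surface lectin that dampens the receptor after LYN has phosphorylated it, and MS4A1 encodes CD20, the target of rituximab. BL is a mature B cell tumour that depends in part on tonic signalling of this receptor, and Ago2 is the protein that holds a miRNA on its target transcripts. A miRNA pairs with a target mainly through its seed, which is why the mature strands of miR-155 are given here, in lower case with the seed, bases 2 to 8, in capitals.
hsa-miR-155-5p: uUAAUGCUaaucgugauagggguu
hsa-miR-155-3p: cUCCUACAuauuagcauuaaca
Both are RefSeq sequences in build GRCh38.p14, written 5′ to 3′, from the plus strand at chr21:25573983-25574006 and chr21:25574022-25574043. By RefSeq the genes of the receptor pathway lie on chromosomes 19 (CD79A and CD22), 17 (CD79B), 8 (LYN), 9 (SYK), X (BTK), 10 (BLNK), 16 (PLCG2) and 11 (MS4A1).

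Each condition is 1 RNA sample, so no test between conditions was possible, no p-value is given, and precision is limited by the small number of arrays. The labellings are technical repeats, and their difference covers the error of labelling and hybridization only. Of 2 slides for the 4 arrays, 0 held both vectors, so vector and slide cannot be told apart, whereas IP and total RNA of one vector share their arrays. Of 41000 probes, between 14082 and 22148 were detected in a channel. The genes named as miR-155 targets by the study had IP/T ratios of 2.24 in EV cells and 6.78 in miR-155 cells (JARID2) and of 1.40 and 17.5 (DET1), and GAPDH had 0.65 and 0.63. Of 10 B cell marker genes 7 were kept, while PAX5 and CD37 were not detected in any channel. The T cell receptor genes CD3D, CD3E and CD3G were not detected in any channel, CD4 was kept, CD8A was detected in all 8 channels but did not pass the dye limit, and 0 probes of the NK cell, monocyte, red cell and fibroblast lists were kept.

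Transcripts of all 9 genes were detected in both cell populations, as the plot of the signals by channel shows. The probes of 8 genes were detected in all 8 channels, and the CD22 probe in 7. A probe was kept for the ratios when it was detected in at least 4 channels and when its normalized signals differed by at most 2-fold between the labellings of each RNA sample, and 15520 probes passed, among them 8 of the 9. CD22 did not pass, because its labellings of the EV IP RNA differed 3.48-fold. The probes of LYN and SYK are printed 10 times on each array, as are 264 probes in all, and the other 7 once. None of the spots was saturated (0 of 27 spots per array).

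**Figure D1:**
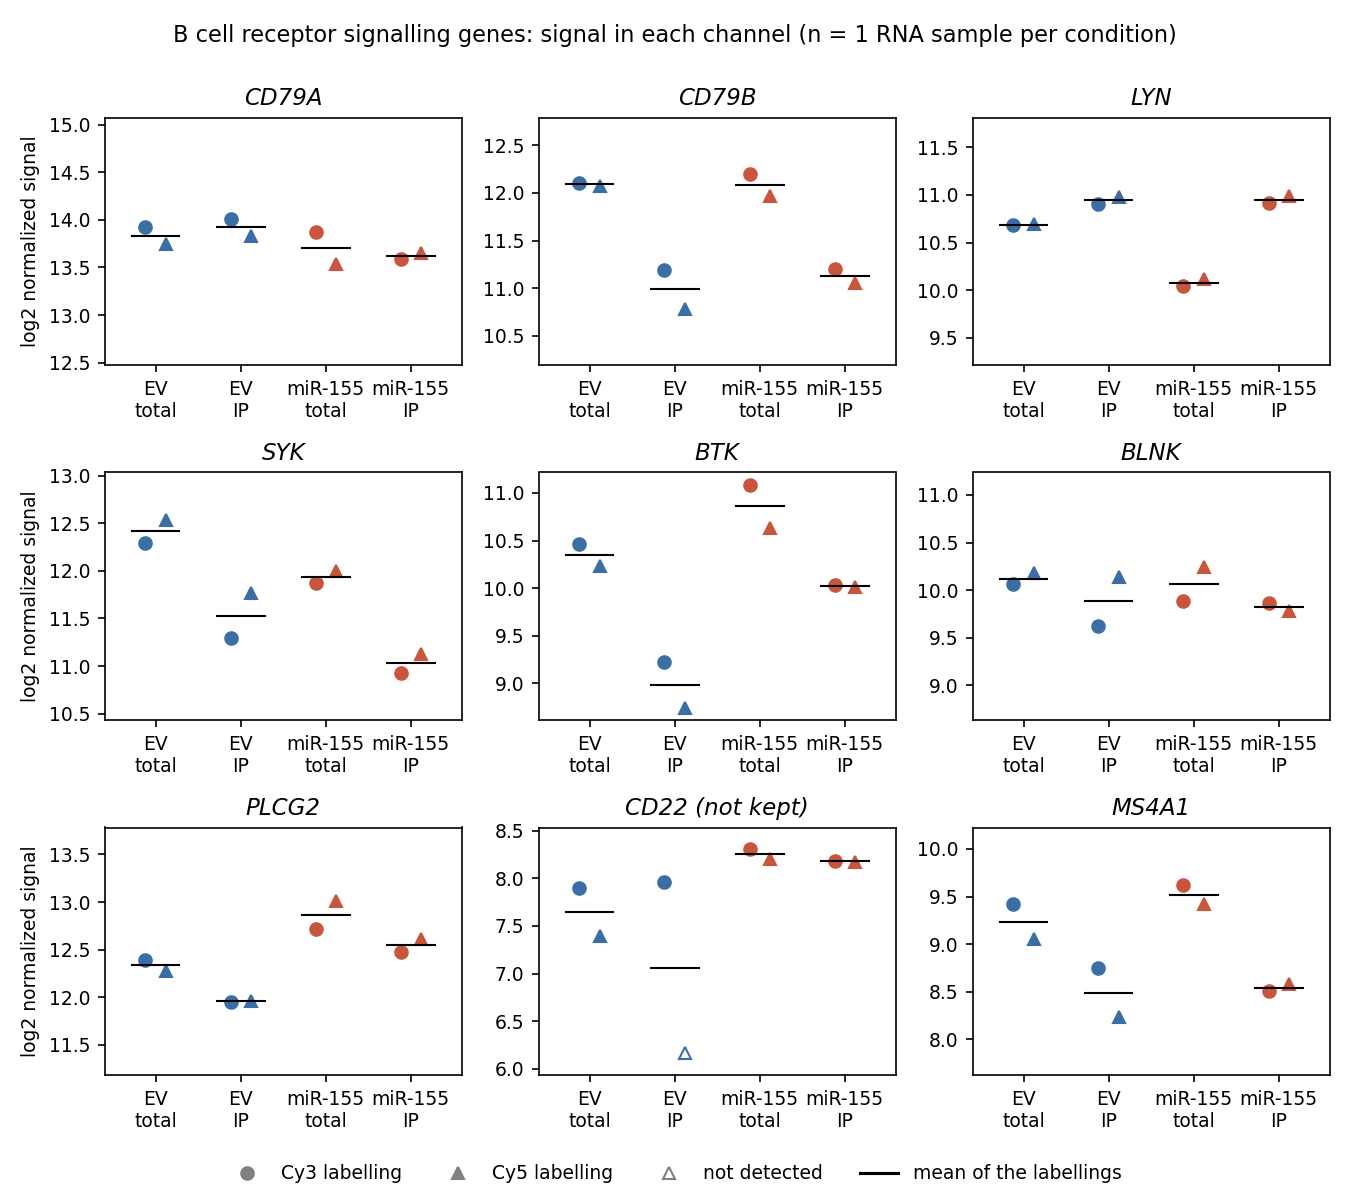
Normalized signal (log2, y axis) of the probe of each gene in the total and IP fraction of EV cells (blue) and miR-155 cells (red). Circles are Cy3 and triangles Cy5 labellings, the open triangle is not detected, and lines are means; every panel spans the same range, and only CD22 in the EV IP fraction has labellings more than 2-fold apart.

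Averaged over the labellings, the receptor genes were mostly weaker in the IP than in the total fraction. In EV cells 6 of the 8 kept probes had an IP/T ratio below 1, with a median of 0.676 (log2 -0.56) and a range from 0.388 for BTK to 1.19 for LYN. Over all 15520 kept probes the median ratio was 0.900, and 58.2% of probes were below 1. In miR-155 cells 7 of 8 were below 1, with a median of 0.669 (log2 -0.58) against 0.882 over all kept probes, of which 59.4% were below 1. The ratios are relative to the other probes, since quantile normalization sets all channels to one distribution.

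By the 2-fold limits used for IP enrichment and its mirror image, an IP/T ratio of at least 2 was found for 0 members in EV cells, against 12.1% of all kept probes, and 2 members, BTK and CD79B, were at or below 0.5, where 10.0% of all kept probes were. After normexp background correction with loess these were at 0.573 and 0.530, past the limit no longer. In miR-155 cells 0 members reached 2 (12.2% of all kept probes) and 0 were at or below 0.5 (9.84%). The miR-155/EV ratio of IP/T was at least 2 for 0 members (1.15% of all kept probes) and at most 0.5 for 0 members (0.477%).

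**Figure D2:**
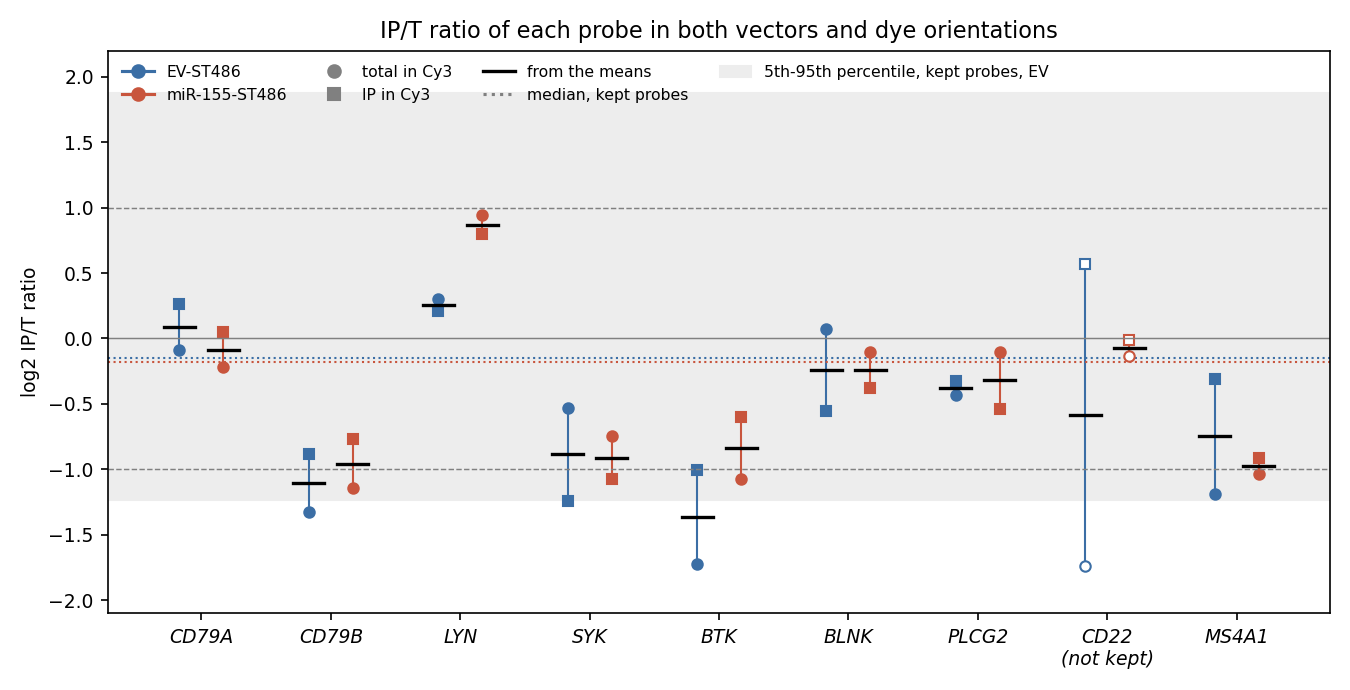
Log2 IP/T ratio (y axis) of each gene in EV cells (blue) and miR-155 cells (red), with circles for arrays with total RNA in Cy3, squares for arrays with IP RNA in Cy3 and black bars for the ratio of the mean signals. Dotted lines are the medians of all kept probes, the grey band their 5th to 95th percentile in EV cells and dashed lines the 2-fold limits; only LYN lies above 0 in both vectors and orientations, and CD22 (open) was not kept.

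The signalling chains of the receptor differed in their IP/T ratios. CD79A, which with CD79B carries the phosphorylated tails, had normalized signals of 15537 (Cy3) and 13717 (Cy5) in the total and of 16493 and 14590 in the IP fraction of EV cells. In miR-155 cells they were 14951 and 11894 in the total and 12307 and 12838 in the IP fraction. The IP signals were lower with miR-155 in both labellings and did not overlap between the vectors, while the total signals did. The IP/T ratio of CD79A was 0.939 with total RNA in Cy3 and 1.20 with IP RNA in Cy3 in EV cells, and 0.859 and 1.03 in miR-155 cells. It lay on either side of 1 in both vectors, so no direction was detectable at this error, and the ratios of the means were 1.06 and 0.943.

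CD79B, the partner chain, was weaker in the IP fraction in every channel pair. EV cells gave signals of 4418 (Cy3) and 4317 (Cy5) in the total and 2345 and 1762 in the IP fraction, and miR-155 cells 4708 and 4013 in the total and 2359 and 2129 in the IP fraction. Every IP signal was below every total signal, and the signals of the vectors overlapped in both fractions. Its IP/T ratio was 0.399 and 0.543 in the orientations in EV cells, with 0.465 from the means, at the 7.45th percentile of all kept probes. With ectopic miR-155 it was 0.452 and 0.588, with 0.516 from the means, so the probe was past the 2-fold limit in 1 vector only, although the values of the vectors overlapped and their ratio was 1.11. The chains thus had unequal IP/T ratios, CD79B being the lower in every orientation of both vectors.

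LYN, the Src family kinase that starts the cascade and also phosphorylates inhibitory receptors such as CD22, was the one member above 1 in every orientation. The total fraction gave 1641 (Cy3) and 1661 (Cy5) in EV cells and 1054 and 1112 in miR-155 cells. The IP fraction gave 1925 and 2022 in EV cells and 1932 and 2026 in miR-155 cells. In these bulk RNA samples fewer cells with a transcript and less transcript per cell cannot be told apart in a comparison of levels between the vectors. The total signals of LYN were lower with miR-155 without overlap, at a miR-155/EV ratio of 0.656 (0.643 in Cy3 and 0.669 in Cy5), at the 3.63rd percentile of all kept probes, whereas the IP signals were nearly equal, at a ratio of 1.00. The IP/T ratio was 1.23 and 1.16 in EV cells and 1.92 and 1.74 in miR-155 cells, and LYN was the only member whose IP/T ratios did not overlap between the vectors, as did not those of 29.7% of all kept probes. The miR-155/EV ratio of IP/T was 1.53 (1.56 and 1.50 in the orientations), at the 96.0th percentile, and stayed under the limit of 2.

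Because LYN and SYK are printed 10 times, their spots give the error of a single spot on an array, here on the signals before quantile normalization, as drawn in the plot of single spots. For LYN the log2 IP/T ratio over the 10 spots was 0.32 ± 0.10 (SD) with total RNA in Cy3 and 0.26 ± 0.16 with IP RNA in Cy3 in EV cells, and 0.96 ± 0.05 and 0.84 ± 0.09 in miR-155 cells. The lowest spot of the miR-155 arrays was at 0.72 and the highest of the EV arrays at 0.59, so the spots of the vectors did not overlap. For SYK the values were -0.49 ± 0.05 and -1.20 ± 0.07 in EV cells, and -0.71 ± 0.09 and -1.03 ± 0.03 in miR-155 cells. All SYK spots were below 0, and those of the dye orientations did not overlap within a vector, so that for SYK the labelling differed more than the spots or the vectors did. Spots of an array are not replicates of a condition.

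**Figure D3:**
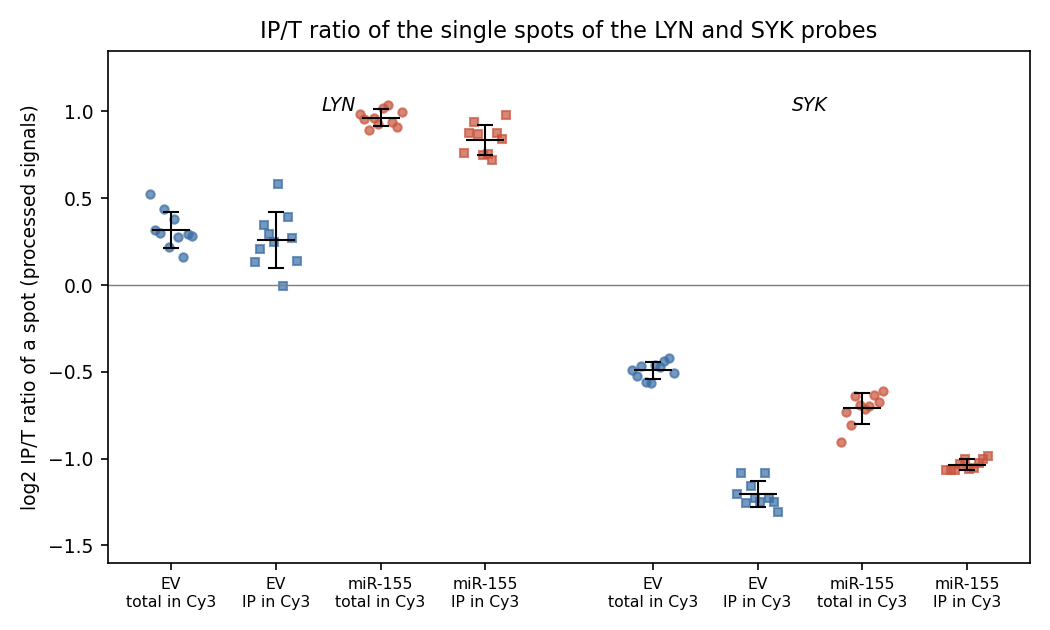
Log2 IP/T ratio (y axis, processed signals of a spot) of the 10 spots of the LYN and SYK probes on each of the 4 arrays (x axis), with circles for total RNA in Cy3 and squares for IP RNA in Cy3; black bars are the mean and SD over spots. LYN spots lie between 0.72 and 1.04 on the miR-155 arrays and between -0.01 and 0.59 on the EV arrays, and SYK spots differ by dye orientation.

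SYK, the kinase that docks on the phosphorylated receptor tails, was lower in the IP than in the total fraction on all arrays. Its signals were 5024 (Cy3) and 5943 (Cy5) in the EV total, 2510 and 3483 in the EV IP, 3761 and 4095 in the miR-155 total and 1947 and 2239 in the miR-155 IP fraction. Both fractions were lower with miR-155 without overlap, at miR-155/EV ratios of 0.718 in the total (0.749 and 0.689) and 0.706 in the IP fraction (0.776 and 0.643). With both fractions lower by a similar factor, the IP/T ratio was 0.541 in EV cells (0.693 and 0.422) and 0.532 in miR-155 cells (0.595 and 0.475), and its miR-155/EV ratio was 0.983.

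BTK, the Tec family kinase that activates PLCG2, had the lowest IP/T ratio of the members in EV cells, at the 3.18th percentile of all kept probes. Its signals were 1410 (Cy3) and 1204 (Cy5) in the EV total, 598 and 428 in the EV IP, 2178 and 1591 in the miR-155 total and 1050 and 1035 in the miR-155 IP fraction. The signals were higher with miR-155 in both fractions without overlap. In the total fraction the miR-155/EV ratio was 1.43 (1.54 and 1.32), at the 92.2nd percentile, and 0 members reached a ratio of 2 (0.670% of all kept probes) or 0.5 (0.380%). In the IP fraction it was 2.06 (1.75 and 2.42), at the 98.9th percentile, which made BTK the 1 kept member that rose at least 2-fold there (1.28% of all kept probes), and 0 members were at or below 0.5 (1.04%). The call rests on the array with IP RNA in Cy5, and with normexp background correction the ratio was 1.57 after quantile normalization and 1.49 after loess. The IP/T ratio of BTK was 0.388 in EV cells (0.303 and 0.497) and 0.560 in miR-155 cells (0.475 and 0.660), with a miR-155/EV ratio of 1.44. It was higher with miR-155 in each orientation (1.57 and 1.33), while the ranges of the vectors overlapped.

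BLNK, the adaptor that SYK phosphorylates, and PLCG2, the phospholipase at the end of this chain, lay nearer to 1. BLNK had signals of 1072 (Cy3) and 1160 (Cy5) in the EV total, 792 and 1126 in the EV IP, 945 and 1212 in the miR-155 total and 933 and 881 in the miR-155 IP fraction. The vectors overlapped in both fractions, and its IP/T ratio was 0.847 in both vectors, from 0.682 to 1.05 in EV cells and from 0.769 to 0.932 in miR-155 cells. PLCG2 gave 5384 (Cy3) and 4977 (Cy5) in the EV total, 3965 and 3988 in the EV IP, 6738 and 8265 in the miR-155 total and 5679 and 6283 in the miR-155 IP fraction. Both its fractions were higher with miR-155 without overlap, at miR-155/EV ratios of 1.44 (1.25 and 1.66) in the total and 1.50 (1.43 and 1.58) in the IP fraction. The IP/T ratio of PLCG2 was 0.768 in EV cells (0.741 and 0.797) and 0.800 in miR-155 cells (0.933 and 0.687), so that it was below 1 on all arrays and overlapped between the vectors.

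Among the surface proteins, MS4A1 had signals of 685 (Cy3) and 531 (Cy5) in the EV total, 429 and 300 in the EV IP, 786 and 684 in the miR-155 total and 363 and 384 in the miR-155 IP fraction. Every IP signal was below every total signal, and the vectors overlapped in both fractions, in the total fraction only just. Its IP/T ratio was 0.595 in EV cells, with the orientations far apart at 0.439 and 0.808, and 0.509 in miR-155 cells, with 0.488 and 0.530, and its miR-155/EV ratio was 0.855. CD22, the inhibitory lectin, was the one member not kept. Its signals were 239 (Cy3) and 168 (Cy5) in the EV total, 249 and 71.6 in the EV IP, 316 and 294 in the miR-155 total and 291 and 288 in the miR-155 IP fraction, and the signal of 71.6 was not well above background. The IP/T ratio of CD22 in EV cells was 0.300 with total RNA in Cy3 and 1.48 with IP RNA in Cy3, on either side of 1, so no direction was detectable there. In miR-155 cells it was 0.950, with 0.911 and 0.990. The total signals of CD22 were higher with miR-155 without overlap, at a ratio of 1.52 (1.32 and 1.75).

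Ordered by IP/T ratio, the kept members ran from BTK through CD79B, SYK, MS4A1, PLCG2, BLNK and CD79A to LYN in EV cells, and every pair of neighbours overlapped between their orientations. In miR-155 cells the order was MS4A1, CD79B, SYK, BTK, PLCG2, BLNK, CD79A and LYN. There the step from BTK at 0.560 to PLCG2 at 0.800 and the step from CD79A at 0.943 to LYN at 1.83 did not overlap, and the other neighbours did. MS4A1, CD79B, SYK and BTK thus lay between 0.509 and 0.560 and were not separated from each other. The plot of the IP/T ratios of the vectors shows these genes at the lower left, with LYN and BTK above the line of equal ratios.

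**Figure D4:**
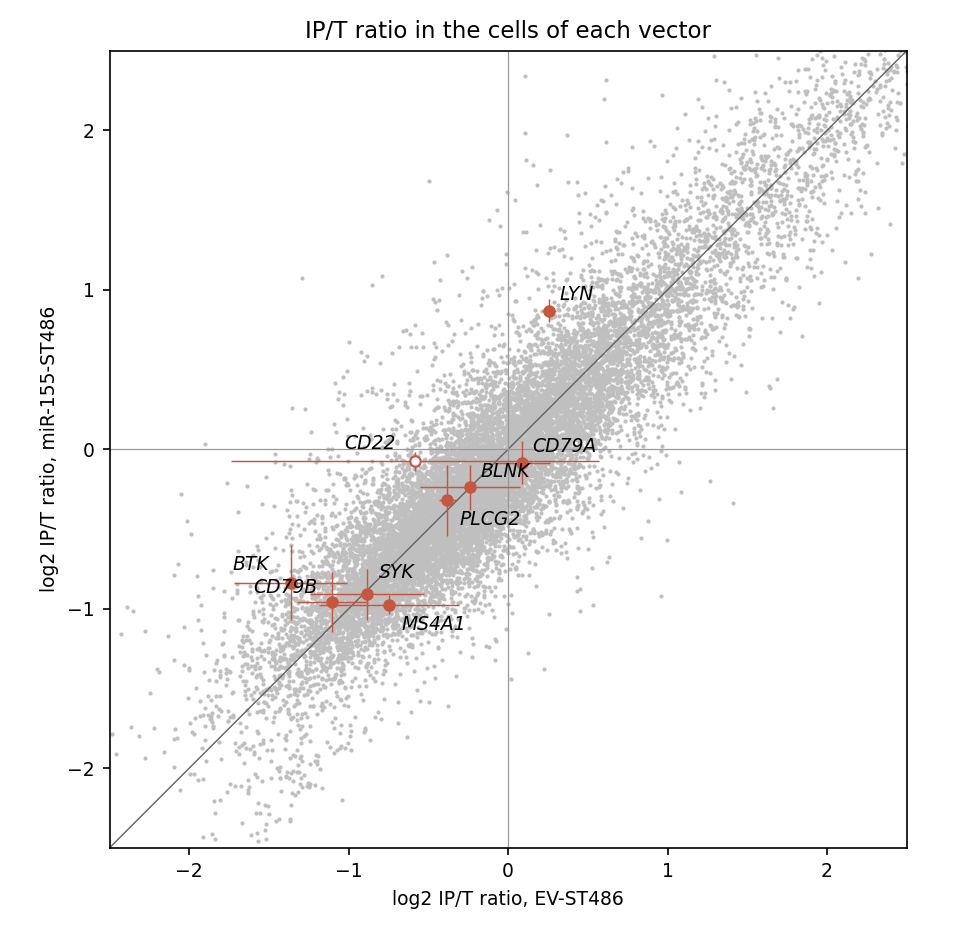
Log2 IP/T ratio in EV cells (x axis) against miR-155 cells (y axis) for the kept probes (grey; 468 of 15520 lie outside the axes) and the members (red, CD22 open), with bars from one dye orientation to the other and the line of equal ratios. LYN and BTK are the kept members farthest above the line, and the bar of CD22 in EV cells spans both sides of 0.

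Between the vectors the members had no common direction. The median miR-155/EV ratio of IP/T was 1.02 (log2 0.03) over the 8 kept members and 0.983 over all kept probes. It was above 1 in both orientations for CD79B, BTK and LYN, which is 3 of 8 members against 26.7% of all kept probes, below 1 in both for CD79A, 1 of 8 against 32.7%, and mixed for the other 4. In the total fraction the median was 0.977 (log2 -0.03) against 1.01, and in the IP fraction it was 1.02 against 1.00. BTK and PLCG2 were higher and SYK and LYN lower in the total fraction without overlap, which is 4 of 8 members against 48.4% of all kept probes. In the IP fraction BTK and PLCG2 were higher and SYK and CD79A lower without overlap, 4 of 8 against 52.5%. Both shares are near those of all kept probes, and in the total fraction none of these differences reached 2-fold. The plot of the miR-155/EV ratios in both fractions gives these values together. They are relative to the other probes: without quantile normalization the median log2 miR-155/EV ratio of all kept probes was 0.44 in both fractions, and SYK then had log2 ratios of 0.0083 in the total and -0.017 in the IP fraction and CD79A 0.13 in the IP fraction, each below that median.

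**Figure D5:**
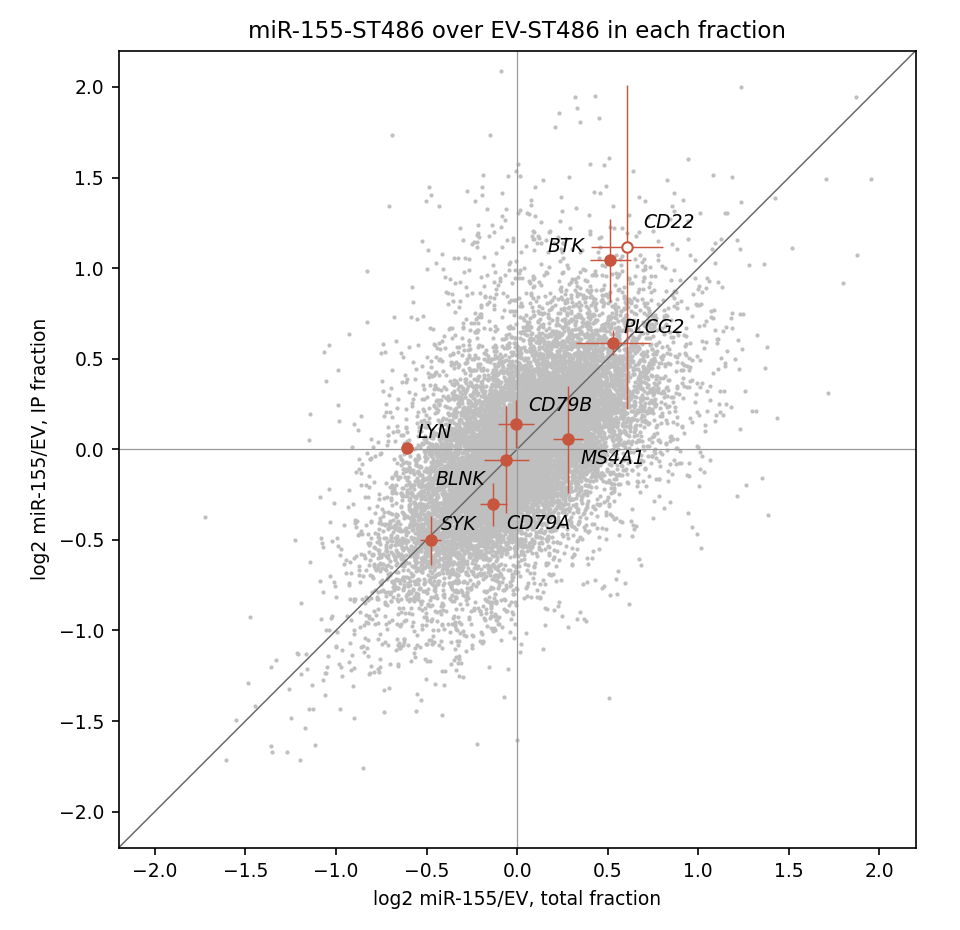
Log2 miR-155/EV ratio in the total (x axis) against the IP fraction (y axis) for the kept probes (grey; 6 of 15520 lie outside the axes) and the members (red, CD22 open), with bars from one labelling to the other and the line of equal change. BTK and PLCG2 lie at the upper right, SYK at the lower left on the line, and LYN at a lower total and an equal IP level.

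The genes whose profile over the 4 RNA samples was nearest to that of LYN, by Euclidean distance between log2 signals centred on their mean, were ATOX1 (distance 0.07), SEMA6C (0.08) and SAP30L (0.09), with IP/T ratios of 1.13, 1.14 and 1.25 in EV cells and 1.77, 1.72 and 1.79 in miR-155 cells. Nearest to BTK were NIPBL (0.10), TYSND1 (0.14) and ZW10 (0.18), with 0.405, 0.360 and 0.452 in EV cells and 0.594, 0.507 and 0.609 in miR-155 cells. Within a distance of 0.2 there were 24 probes around LYN and 6 around BTK, so other genes shared both profiles.

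Of 56 further genes of BCR signalling, 53 had a probe and 41 had a kept probe. Their median IP/T ratio was 0.871 in EV cells and 0.882 in miR-155 cells, and 30 and 27 genes were below 1, which is 73.2% and 65.9% of them against 58.2% and 59.4% of all kept probes. In EV cells 1 gene was at least 2-fold higher in the IP fraction on every kept probe and 2 were at least 2-fold lower, against 12.1% and 10.0% of all kept probes. In miR-155 cells 2 were higher and 2 lower, against 12.2% and 9.84%. The shares of all kept probes count single probes, so for the 7 genes with several kept probes the rule for a call was stricter. For the genes below 1, the median of a gene's kept probes was used. FCRLA, an Fc receptor-like protein of B cells, had IP/T ratios of 2.90 in EV cells and 3.61 in miR-155 cells on its kept probe. BCL10, which passes the signal on to NF-kappaB, had 1.97 and 2.28. FCRLA and BCL10 each have a further probe that was detected in 2 channels and not kept. CSK, the kinase that restrains LYN by phosphorylating its tail, had 0.357 and 0.351, and AKT1, a kinase downstream of PI3K, had 0.250 and 0.304. The miR-155/EV ratio of IP/T was past 2 or 0.5 on every kept probe for 0 of the 41 genes. Of all kept probes 1.15% were at least at 2 and 0.477% at most at 0.5. For AKT2 this ratio was past 2 on 1 of 3 kept probes. FCRLA was the 1 gene that rose at least 2-fold with miR-155 on every kept probe in the total fraction, at a ratio of 2.28 (0.670% of all kept probes). It was also the 1 such gene in the IP fraction, at a ratio of 2.84 (1.28% of all kept probes).

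Every member rests on 1 probe, and probes of the same gene can give different IP/T ratios. Of 2148 genes with several kept probes, 20.2% had probes more than 2-fold apart in IP/T in EV cells and 14.4% in miR-155 cells, and 3.40% in the miR-155/EV ratio. The MYC probes gave 5.40 and 0.453 in EV cells, and those of ACTB ran from 0.717 to 1.87.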

How the data were processed

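Per the file headers, the authors deposited intensity values of 2-colour whole human genome arrays read with Agilent Feature Extraction 10.5.1.1, which subtracts the background and normalizes the dyes of an array, together with 0 or 1 flags for detection, outliers and saturation. They also deposited log2 values that they had quantile-normalized over the 8 channels and filtered. The file of an array was given for its Cy3 and again for its Cy5 sample, and the identical copies were counted once. Controls were left out, spots of a probe were averaged, values below 1 were set to 1, log2 signals were quantile-normalized over the 8 channels, and probes were filtered on detection and on a dye difference of at most 2-fold, after the methods of the study, which left 15520 of 41000 probes (19456 were detected in at least 4 channels, and 3936 of them failed the dye limit). Labellings were averaged on the log2 scale. The deposited log2 values hold 14453 probes, 14446 of them among those kept, and 99.9% lay within 0.05 of the values made here. Called probes have a ratio of at least 2 or at most 0.5. Only the groups given by the labels were used, and no test was run. The code was checked on simulated signals with known ratios, which does not measure the error of these arrays.

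The members and lists were chosen with earlier results of these data known. All members are named, as are the listed pathway genes past the 2-fold limits in IP/T or miR-155/EV on every kept probe, the 3 nearest profiles of the members with the highest and lowest IP/T in EV-ST486, the reference genes GAPDH, ACTB and MYC, and the study's targets JARID2 and DET1. Symbols were taken from RefSeq through the accession of a probe, which matched 23958 probes. Arrays of other cell lines were not analysed here. Alternatives were normexp background correction (offset 50, with the 33 local backgrounds above 500 set to the channel median) with quantile or with loess and Aquantile normalization, no quantile normalization, the deposited log2 values, stricter or no detection filter, no dye filter, 1 value per gene, each dye orientation alone and, chosen after seeing the data, outlier spots left out. The tools were R 4.3.3 with limma 3.58.1 and Python 3.11.15 with numpy 2.4.6, pandas 2.3.3, scipy 1.17.1 and matplotlib 3.10.9.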

Additional observations from a re-analysis of the deposited data

How the results depend on the processing

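With normexp correction the median log2 IP/T of the members was nearer to 0, at -0.27 after quantile and -0.25 after loess and Aquantile normalization in EV cells and -0.34 and -0.29 in miR-155 cells. CD22 was kept in both settings, so these medians are not over the same genes as the main ones. The medians of all kept probes were also nearer to 0, at -0.073 and -0.014 in EV cells and -0.083 and -0.011 in miR-155 cells. The median log2 miR-155/EV ratio of the members was farther from 0, at 0.13 and 0.12 for IP/T and at -0.23 and -0.24 in the total fraction. With loess the count of members past 2-fold in EV cells was 0 in place of 2, and PLCG2 was not kept while CD22 was. Without quantile normalization the median log2 miR-155/EV ratio was 0.052 for IP/T and 0.44 in the total fraction, where all kept probes also had 0.44, so that relative to them the members were at 0.00025. Without the dye filter CD22 entered, and the median was -0.32 for IP/T in miR-155 cells and 0.059 for the miR-155/EV ratio of IP/T. With the arrays of 1 dye orientation alone, the median log2 IP/T ranged from -0.48 to -0.44 in EV cells and from -0.57 to -0.48 in miR-155 cells, the log2 miR-155/EV ratio of IP/T from 0.14 to 0.17, that of the total fraction from -0.021 to 0.018, and the count past 2-fold from 2 to 3 in EV cells and from 1 to 3 in miR-155 cells, and it was 0 for the miR-155/EV ratio. The cause of these shifts was not tested. The remaining values of the medians and counts, 56 of 77, moved by less than the SD between orientations or by at most 1.5 times, and so did 388 of 435 values of single genes. Many of these values could not move, so the counts do not measure robustness. Every kept member has 1 probe, detected in all 8 channels, so 1 value per gene and the stricter or absent detection filter repeat the main values. For single genes the absent dye filter does so too, and each orientation alone stays within that SD by construction. Over all settings LYN had IP/T ratios from 1.16 to 1.27 in EV cells and from 1.59 to 1.92 in miR-155 cells, and a miR-155/EV ratio of IP/T from 1.32 to 1.56, and BTK had IP/T ratios from 0.303 to 0.573 in EV cells. The IP/T ratios pair the IP and total RNA that share an array, but no paired test was possible because each condition has 1 RNA sample. In EV cells the IP/T ratios of CD22 and MS4A1 differed most between the orientations.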

Other observations

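Among the further genes of BCR signalling, VAV3 and SHC1 were chosen after their values were seen, for miR-155/EV ratios of IP/T above 1. VAV3, a guanine nucleotide exchange factor, had IP/T ratios of 0.872 in EV cells and 1.41 in miR-155 cells, a miR-155/EV ratio of 1.61. SHC1, an adaptor, had 0.611 and 0.985, also a ratio of 1.61. Neither was past 2-fold. The probes of AKT2 disagreed, with miR-155/EV ratios of 0.886, 2.48 and 0.791, and those of LAT2 had IP/T ratios of 0.962 and 0.249 in EV cells.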
